A study of Homo sapiens with 6 samples.

Results

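Inflammatory chemokines and cytokines are small secreted proteins that recruit leukocytes and pass signals between tumour cells and the tissue around them. The 10 genes described here were CXCL8, CXCL1, CXCL2, CXCL3, CCL2, IL6, IL11, LIF, IL1A and IL1B, taken by gene symbol from a table of 24976 gene entries. Rows of 1 symbol were to be summed, and each of the 10 had a single row.

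RNA came from LN229, an established human glioblastoma cell line grown as an adherent culture. In 3 libraries GDH1, the mitochondrial enzyme glutamate dehydrogenase 1 encoded by GLUD1, was knocked down with small interfering RNA (siRNA) for 24 h, and 3 libraries were controls. The labels give Lipofectamine 3000 and siRNA as the treatment of all 6 samples, call the control genotype WT and title the controls NC. The sources used here do not say whether the control dishes received a non-targeting siRNA or whether the knockdown libraries share 1 siRNA sequence. The series calls the 3 libraries of a group biological replicates. Totals were 31201100 to 34452724 counts in controls and 33355207 to 35619614 in the knockdown. GLUD1 counts were 3048, 2689 and 2813 in the controls, given here and throughout in the order of the replicates, and 727, 877 and 933 in the knockdown, a difference of -1.82 on the log2 scale (SE 0.10, edgeR adjusted p = 7.46e-07).

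Chemokines of the CXC class with a Glu-Leu-Arg motif before the first cysteines (ELR chemokines), such as CXCL8, attract neutrophils through CXCR1 and CXCR2 and promote the growth of blood vessels. CCL2 attracts monocytes through CCR2, and the IL-6 family (IL6, IL11, LIF) signals through the shared chain IL6ST, also called gp130, to JAK kinases and STAT3. IL1A and IL1B bind IL1R1 together with IL1RAP and activate NF-kappaB and AP-1, the transcription factors that in turn induce many of these genes. In glioblastoma this group is known as part of the crosstalk with myeloid cells and, for LIF, of the maintenance of stem-like tumour cells.

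The start regions of the genes were read from RefSeq promoter windows (GRCh38.p14), which held 8 of the 10 genes in 9 windows of 300 bases, 250 before and 50 after the start. CCL2 and LIF were not matched. Shown are the 200 bases before the start of 7 genes, the 4 ELR chemokines because they are related copies with different values here, and IL6, IL11 and IL1A because their transcripts differed between the groups. They lie at chr4:73740369-73740568 and chr4:73869193-73869392 on the plus strand for CXCL8 and CXCL1, and at chr4:74099196-74099395 and chr4:74038690-74038889 on the minus strand for CXCL2 and CXCL3. The others lie at chr7:22727000-22727199 (plus) for IL6, chr19:55370464-55370663 (minus) for IL11 and chr2:112784494-112784693 (minus) for IL1A. Each is written 5′ to 3′ on the strand of its gene, and capitals mark matches to the motifs given after the sequences.

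CXCL8: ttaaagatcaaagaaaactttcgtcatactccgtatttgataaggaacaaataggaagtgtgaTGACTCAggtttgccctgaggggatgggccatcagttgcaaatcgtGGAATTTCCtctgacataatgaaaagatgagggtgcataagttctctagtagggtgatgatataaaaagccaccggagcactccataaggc

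CXCL1: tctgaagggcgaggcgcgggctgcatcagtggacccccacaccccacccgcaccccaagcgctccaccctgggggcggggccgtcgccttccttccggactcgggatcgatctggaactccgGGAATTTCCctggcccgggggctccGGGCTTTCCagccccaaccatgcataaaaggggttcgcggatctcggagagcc

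CXCL2: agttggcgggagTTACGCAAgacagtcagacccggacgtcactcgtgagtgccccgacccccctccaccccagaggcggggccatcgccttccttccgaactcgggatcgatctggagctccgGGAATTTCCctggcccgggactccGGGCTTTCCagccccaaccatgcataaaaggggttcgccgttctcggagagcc

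CXCL3: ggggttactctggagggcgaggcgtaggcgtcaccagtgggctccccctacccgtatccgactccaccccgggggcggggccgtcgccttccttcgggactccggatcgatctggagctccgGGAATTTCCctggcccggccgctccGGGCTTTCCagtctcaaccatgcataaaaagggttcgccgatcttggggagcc

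IL6: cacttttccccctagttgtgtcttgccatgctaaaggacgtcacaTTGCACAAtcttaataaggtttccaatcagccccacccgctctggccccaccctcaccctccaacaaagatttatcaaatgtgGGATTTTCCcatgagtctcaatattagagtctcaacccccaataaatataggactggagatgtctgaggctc

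IL11: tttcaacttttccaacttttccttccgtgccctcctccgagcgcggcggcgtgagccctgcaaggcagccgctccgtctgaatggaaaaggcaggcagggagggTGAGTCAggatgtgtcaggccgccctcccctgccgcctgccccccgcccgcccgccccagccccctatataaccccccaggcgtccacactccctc

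IL1A: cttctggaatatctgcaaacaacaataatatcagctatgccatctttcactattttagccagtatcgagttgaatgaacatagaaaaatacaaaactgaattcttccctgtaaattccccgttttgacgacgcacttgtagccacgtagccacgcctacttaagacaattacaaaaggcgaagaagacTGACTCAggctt

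4 motifs were searched on both strands. GGNNTTTCC, a core of kappaB sites, stood in 6.26% of all 35116 RefSeq windows and in 5 of the 8 matched genes. It started 91 bases before the start of CXCL8 and 72 before that of IL6, and CXCL1, CXCL2 and CXCL3 held it at 2 places each, the nearer one 53 bases before the start in all 3. TGANTCA, an AP-1 site, stood in 7.71% of windows and in CXCL8, IL11 and IL1A. TTGCNNAA, a C/EBP site, stood in 10.5% of windows and in CXCL2, IL6 and IL1B. TGACGTCA, a cyclic AMP element, stood in 1.85% of windows and in none of the 8 genes. For all 4 motifs, a gene without a match lacks only these exact letters in its window. Variants of a site with other letters were not searched. A match is a description of the sequence and not a measured binding site, and none of the motifs overlapped another in these windows.

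**Figure D1:**
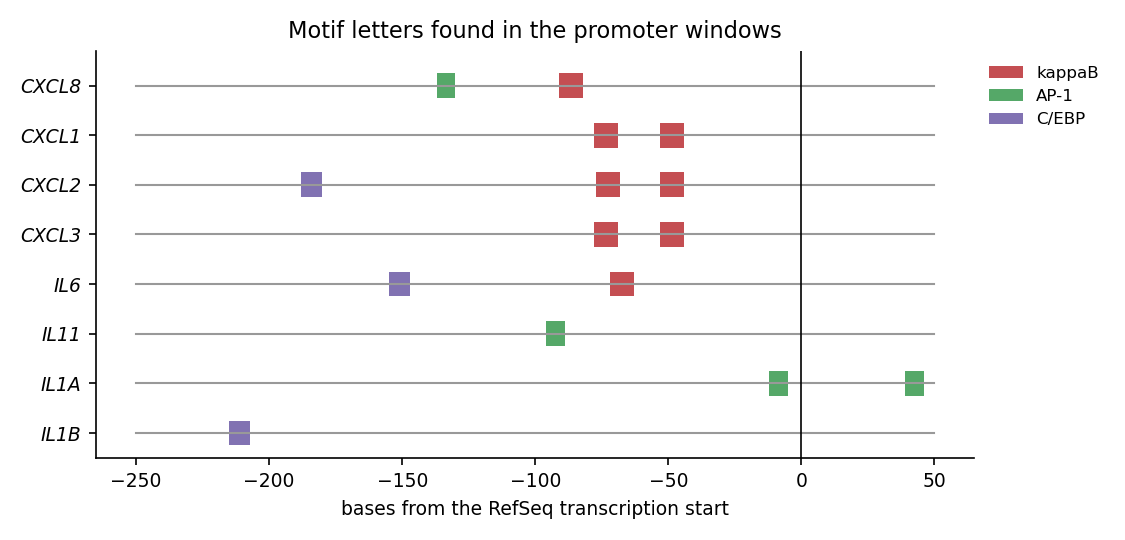
Motif matches in the RefSeq promoter windows of 8 genes, by distance in bases from the transcription start (vertical line at 0, window from 250 before to 50 after). Boxes are kappaB, AP-1 and C/EBP letters, and CXCL1, CXCL2 and CXCL3 share the kappaB match 53 bases before the start.

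Among these genes the knockdown libraries held more CXCL8, IL1A, IL11, IL6 and CCL2 transcript and less LIF. A gene was called when its adjusted p in edgeR's quasi-likelihood test, with Benjamini-Hochberg adjustment over all 15638 tested genes, was under 0.05. Of the 10 genes, 9 passed the filter on low counts and were tested. 5 were called higher, where 13.0% of all tested genes were, 1 was called lower, where 13.1% were, and 3 were not called. In either direction 26.1% of all tested genes were called. For 7 of the 9 every library of 1 group lay above every library of the other, as for 42.0% of all tested genes. The median log2 fold change of the 9 was 0.83, beside -0.0033 over all tested genes. IL6 reached the filter's minimum of 10 counts in only 2 control libraries and so was tested by virtue of its knockdown libraries, which makes counts and medians over the 9 a description.

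**Figure D2:**
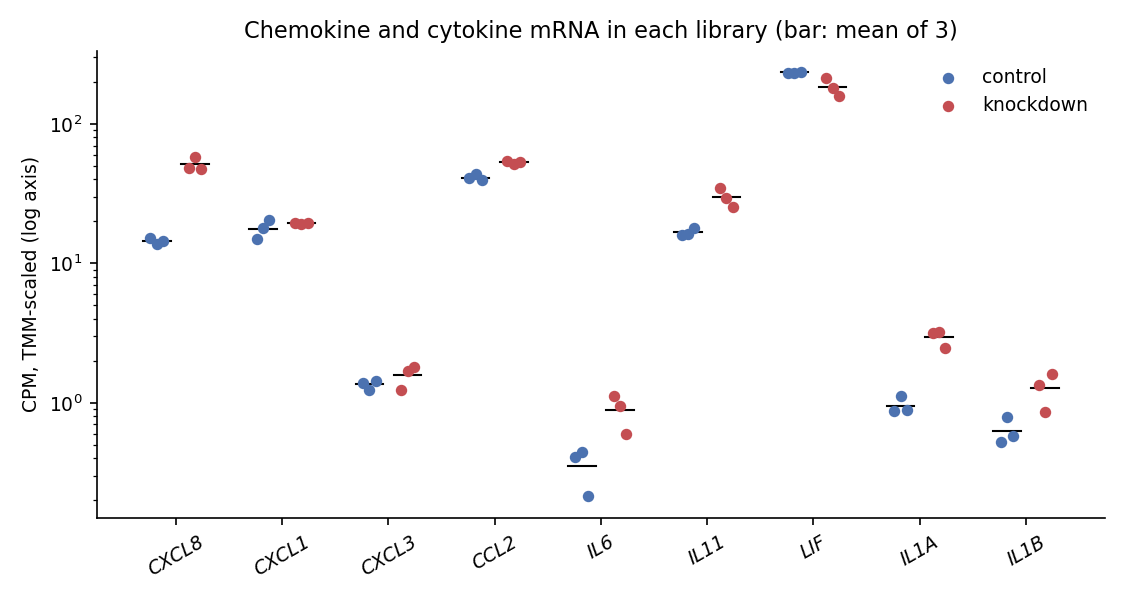
Counts scaled to library size (TMM-scaled CPM, log axis) of the 9 genes with counts in each of the 3 control and 3 knockdown libraries, with bars at the mean of 3. CXCL8 sits at 13.7 to 15.3 CPM in controls and 47.9 to 57.9 in the knockdown, while LIF, the most abundant by this scale, sits at 233.5 to 235.8 and 159.4 to 212.9.

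CXCL8, interleukin-8, is the main human neutrophil chemokine (chromosome 4, 73740569 to 73743716, plus strand, GRCh38). Its counts were 528, 432 and 476 in controls and 1686, 1941 and 1674 in the knockdown. Every knockdown library held more than 3 times as many counts as any control. As CPM, counts scaled to library size with the trimmed mean of M values (TMM), the level was 14.5 ± 0.781 in controls and 51.4 ± 5.65 in the knockdown (mean ± SD, n = 3 each), that is 354% of control. On the log2 scale CXCL8 rose by 1.82 (SE 0.10, edgeR adjusted p = 9.53e-07). 116 genes, CXCL8 included, or 0.742% of those tested, were called with at least this rise. In these bulk libraries a higher level in each cell cannot be told apart from more cells that make the transcript.

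CXCL1, which shares the receptor CXCR2 with CXCL8 and lies downstream of it on chromosome 4 (73869393 to 73871308, plus strand), was not called. It had 519, 560 and 667 counts in controls and 676, 646 and 678 in the knockdown. The highest control, at 20.3 CPM, lay above all knockdown libraries, which ranged from 19.3 to 19.4 CPM. The log2 fold change was 0.13 (SE 0.12, edgeR adjusted p = 0.459), and 0.026 to 0.24 when 1 library was left out, with no call.

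CXCL3, a further CXCR2 ligand (74036589 to 74038689, minus strand), was scarce, with 48, 39 and 47 counts in controls and 43, 57 and 63 in the knockdown. The groups overlapped, because knockdown replicate 1 lay below every control at 1.23 CPM while knockdown replicates 2 and 3 lay above them. Its log2 fold change was 0.22 (SE 0.28, edgeR adjusted p = 0.602), and 0.12 to 0.37 when 1 library was left out, again with no call. CXCL2 (74097040 to 74099195, minus strand) was listed at 0 in all 6 libraries. By counting error alone, and if the values are plain read numbers, 0 counts allow up to 3 counts, or 0.0842 to 0.0962 CPM depending on the library. CXCL1, CXCL2 and CXCL3 are near-identical in places: 19.8% of the 31-base windows of the CXCL2 transcript occur in CXCL1 or CXCL3, so these 3 values are uncertain to the extent that such reads were dropped or assigned elsewhere. No 31-base window of CXCL8 occurs in the other 3, and no 100-base window is shared among any of the 4.

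The CXC cluster holds 9 protein-coding genes between CXCL8 and CXCL2, over 358627 bases. Of these, CXCL8, CXCL1 and CXCL3 had counts, and the other 6 genes, CXCL2 among them, had 0 in every library.

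CCL2, the monocyte chemokine on chromosome 17 (34255285 to 34257203, plus strand), rose by a smaller amount. It had 1406, 1371 and 1296 counts in controls and 1896, 1728 and 1861 in the knockdown. No control reached the lowest knockdown library. The level went from 41.3 ± 2.12 to 53.1 ± 1.43 CPM, which is 0.36 on the log2 scale (SE 0.08, edgeR adjusted p = 0.00667). With every library corrected for GC content and length of the transcripts, the difference was 0.22 on the log2 scale and the call was kept (edgeR adjusted p = 0.0141).

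Within the IL-6 family, IL11 and IL6 were called higher and LIF was called lower. IL11, a cytokine of bone and stroma with roles in fibrosis (chromosome 19, 55364382 to 55370463, minus strand), had 551, 509 and 588 counts in controls and 1209, 979 and 883 in the knockdown. All knockdown libraries lay above all controls, replicate 1 the highest. The level rose from 16.7 ± 1.06 to 29.7 ± 4.74 CPM, which is 0.83 on the log2 scale (SE 0.12, edgeR adjusted p = 5.61e-04).

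IL6, the founding member of the family (chromosome 7, 22727200 to 22731998, plus strand), was near the detection limit, with 14, 14 and 7 counts in controls and 39, 32 and 21 in the knockdown. The groups did not overlap. The level was 0.355 ± 0.124 CPM in controls and 0.892 ± 0.265 CPM in the knockdown, a log2 fold change of 1.32 (SE 0.45, edgeR adjusted p = 0.0474). This call was lost in 8 alternatives. With no filter the adjusted p was 0.0541, with DESeq2 0.0560 and with rows not summed 0.0564, and it ranged from 0.0793 to 0.173 when any 1 control, or knockdown replicate 1 or 2, was left out. In each library fewer gene rows held a count of 1 (231 to 310) than a count of 2 (677 to 757), so counts this low may not be plain read numbers.

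LIF, leukemia inhibitory factor (chromosome 22, 30240453 to 30246759, minus strand), went the other way. It had 8056, 7341 and 7744 counts in controls and 7417, 6027 and 5574 in the knockdown. The controls stood within 233.5 to 235.8 CPM, and the knockdown libraries spread from 212.9 CPM in replicate 1 through 179.8 to 159.4 CPM in replicate 3, all below the controls. The mean fell from 234.3 ± 1.34 to 184.1 ± 27.0 CPM, that is to 78.6% of control and by 0.35 on the log2 scale (SE 0.09, edgeR adjusted p = 0.0184). The call was lost without control replicate 1, 2 or 3 (adjusted p = 0.0646, 0.0575 and 0.0755) and without knockdown replicate 2 (0.0811), at fold changes from -0.33 to -0.35. LIF transcripts are rich in G and C (56.9%, against 33.4% for CXCL8), and after the GC and length correction the fold change was -0.19 and still called (adjusted p = 0.00191). RefSeq places antisense genes across IL6 and LIF, and the sources used here do not say whether counting used strand, so reads of a gene and its antisense partner cannot be told apart.

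The 2 interleukin-1 genes were both scarce. IL1A, which encodes an alarmin held in the nucleus or at the membrane (chromosome 2, 112773925 to 112784493, minus strand), had 30, 35 and 29 counts in controls and 110, 108 and 87 in the knockdown. The lowest knockdown library held more than any control. The level rose from 0.955 ± 0.137 to 2.96 ± 0.406 CPM, which is 1.63 on the log2 scale (SE 0.25, edgeR adjusted p = 8.66e-04).

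IL1B, the secreted form that needs cleavage by an inflammasome (112829751 to 112836779, minus strand), had 18, 25 and 19 counts in controls and 47, 29 and 56 in the knockdown. The groups did not overlap, but knockdown replicate 2 came close to control replicate 2. The log2 fold change was 1.01 (SE 0.37), and it was not called (adjusted p = 0.0633, edgeR). CXCL8, CCL2, IL11 and IL1A kept their calls in all 15 alternatives, in which the fold change of CXCL8 ranged from 1.61 to 1.87 on the log2 scale.

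**Figure D3:**
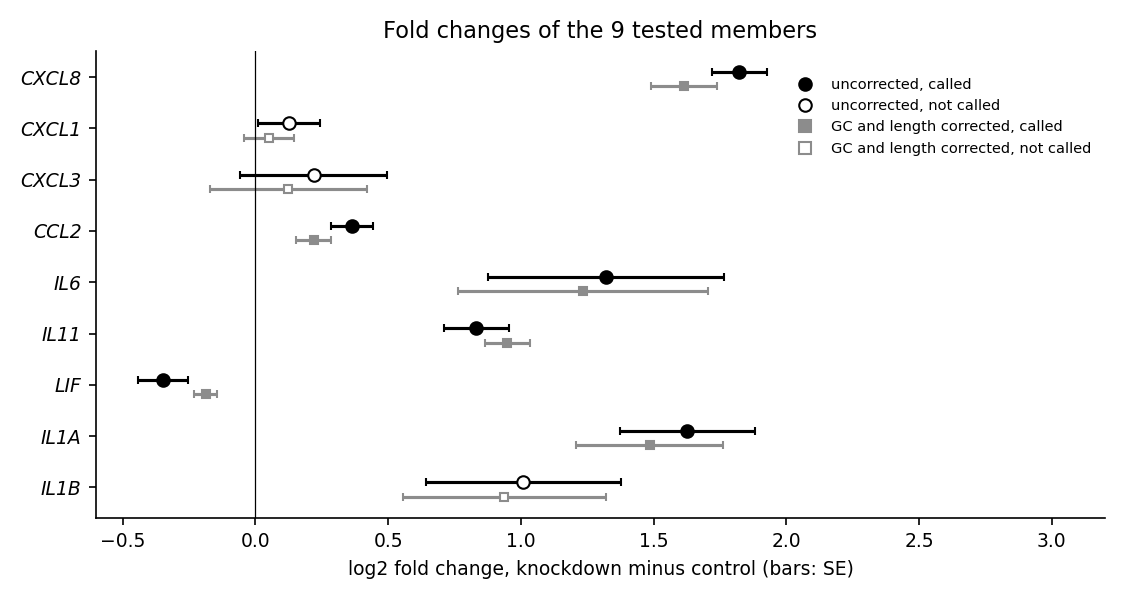
Log2 fold changes, knockdown minus control, with standard errors for the 9 tested genes, before (circles) and after (squares) correction of the libraries for GC content and length of the transcripts. Filled symbols are called. CXCL8 moves from 1.82 to 1.61, and LIF from -0.35 to -0.19, without a change of direction or call.

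Levels of different genes were compared as CPM per kilobase of the longest GENCODE protein-coding transcript. In controls LIF (59.0 ± 0.338) and CCL2 (55.7 ± 2.86) led and their libraries overlapped. CXCL1 followed at 16.2 ± 2.40, CXCL8 at 8.51 ± 0.458 and IL11 at 7.32 ± 0.465 CPM per kilobase, with no overlap between these neighbours. CXCL3 (1.26), IL1A (0.450), IL1B (0.387) and IL6 (0.232) lay far lower, and of these IL1A and IL1B overlapped. In the knockdown the order became CCL2 (71.6 ± 1.94), LIF (46.4 ± 6.79), CXCL8 (30.1 ± 3.32) and CXCL1 (17.6 ± 0.064), with no overlap between neighbours. On this scale CXCL8 thus passed CXCL1, and CCL2 stood above LIF. Below them came IL11 (13.0 ± 2.08), then CXCL3 and IL1A, which overlapped, and IL1B and IL6, which also overlapped. Without division by length, LIF lay above CCL2 in both groups, at 234.3 against 41.3 CPM in controls and 184.1 against 53.1 in the knockdown. By CPM the control libraries of CXCL8 and CXCL1 overlapped. The order thus rests on the lengths used, and which transcripts were expressed was not tested. Of the summed CPM per kilobase of the 10 genes, CXCL8 made up 5.72 ± 0.420% in controls and 16.5 ± 1.90% in the knockdown, and LIF 39.6 ± 0.764% and 25.3 ± 2.37%.

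The contrast of CXCL8 with LIF and the other genes was taken within each library, where scaling cancels. CXCL8 had 0.0655, 0.0588 and 0.0615 counts for each LIF count in controls and 0.227, 0.322 and 0.3003 in the knockdown. Every knockdown library lay above every control. The log2 ratio was -4.01 ± 0.078 in controls and -1.83 ± 0.266 in the knockdown, a difference of 2.17 (two-sided exact permutation p = 0.1, the smallest that 3 against 3 allows).

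Over the 8 genes compared with CXCL8, the knockdown log2 ratios also lay above all control ratios for CXCL1 (difference 1.68), CXCL3 (1.62), CCL2 (1.45), IL11 (1.00) and IL1B (0.89). For all 6 of these, LIF included, the exact permutation p was 0.1 and 0.133 after Benjamini-Hochberg adjustment over the 8 pairs, so no pair could pass 0.05 in this design. The ratio of CXCL8 to CXCL1 counts was 1.02, 0.771 and 0.714 in controls and 2.49, 3.005 and 2.47 in the knockdown. Against IL6 (0.61, exact permutation p = 0.2) and IL1A (0.25, exact permutation p = 0.3) the groups overlapped. The ratio of CXCL8 to IL1A was 17.6, 12.3 and 16.4 counts in controls and 15.3, 18.0 and 19.2 in the knockdown.

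LIF lay lower relative to 6 of the 7 genes other than CXCL8 in every knockdown library than in any control. The difference in its log2 ratio was -1.93 to IL1A, -1.57 to IL6, -1.28 to IL1B, -1.18 to IL11, -0.72 to CCL2 and -0.50 to CXCL1 (exact permutation p = 0.1, 0.117 after adjustment over 7 pairs). Against CXCL3 the groups overlapped (-0.56, exact permutation p = 0.3). LIF counts per IL11 count were 14.6, 14.4 and 13.2 in controls and 6.13, 6.16 and 6.31 in the knockdown, the narrowest spread of a knockdown ratio among these 7.

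**Figure D4:**
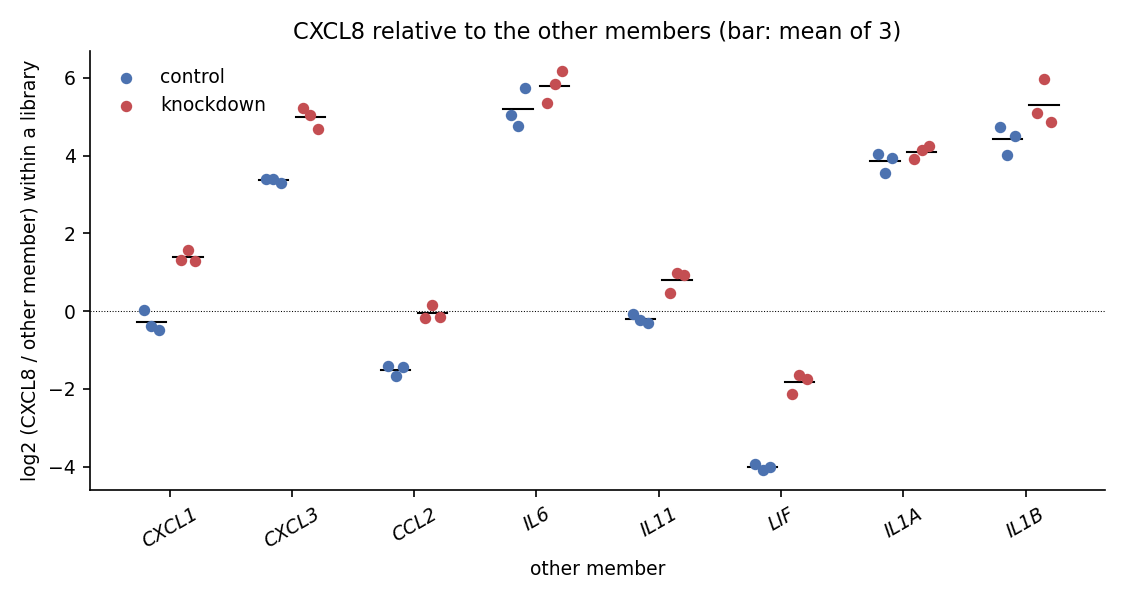
Log2 ratio of CXCL8 to each of 8 other genes within a library, for 3 control and 3 knockdown libraries, with bars at the mean of 3 and a dotted line at equal scaled level. The mean ratio to LIF lies at -4.01 in controls and -1.83 in the knockdown, and for IL6 and IL1A the groups overlap.

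Genes whose 6 values followed CXCL8 most closely were found by the Euclidean distance of log2 CPM, relative to the control mean, over the 6 libraries and 10237 genes. BHLHE41, a transcriptional repressor of the circadian clock, was nearest (distance 0.207, log2 fold change 1.88), followed by PTHLH, which encodes parathyroid hormone-related protein (0.233, 1.86). SLC14A1 (0.333), IGFBP3 (0.340) and TAFA2 (0.342) came next. Nearest to LIF were MANEAL (0.0554), PLEKHG2 (0.0612), RAB1B (0.0630), GSTP1 (0.0701) and TMEM54 (0.0740). Transcripts of these 5 genes hold 56.9 to 63.7% G and C, beside 56.9% for LIF. Each of them, like LIF, stepped down in CPM from knockdown replicate 1 through 2 to 3. What part GC content has in this likeness was not tested.

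Receptors for these ligands were mostly scarce on the chemokine side and present on the cytokine side. CXCR1 had 3 to 15 counts per library, CXCR2 0 to 5 and CCR2 0 in all 6. Of 11 chemokine receptors listed, 3 were tested and 2 were lower, where 13.1% of all tested genes were. ACKR4, a scavenging receptor of CC chemokines other than CCL2, fell from 22.4 ± 0.433 to 8.26 ± 2.30 CPM (log2 difference -1.44, edgeR adjusted p = 1.83e-04). ACKR1, which binds CXCL8 and CCL2 without signalling, fell from 9.57 ± 0.914 to 3.95 ± 1.11 CPM (-1.27, edgeR adjusted p = 7.07e-04). ACKR4 lies within ACAD11, so its reads may be shared.

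For the IL-6 family, 5 of 6 receptor genes were tested and 3 rose, beside 13.0% of all tested genes. The rises were 0.46 for OSMR, 0.36 for IL6ST and 0.32 for IL6R on the log2 scale (adjusted p = 6.97e-04, 0.0131 and 0.0217, edgeR). IL6ST and IL6R lost their calls without control replicate 1 or 3 or knockdown replicate 2, with adjusted p up to 0.0666 and 0.0961. The chains specific to the other ligands were not called: LIFR had 30.5 ± 3.61 and 28.9 ± 4.96 CPM, and IL11RA 3.25 ± 0.412 and 2.14 ± 0.617 CPM. After the GC and length correction LIFR was called lower, at -0.23 on the log2 scale against -0.08 without it (edgeR adjusted p = 0.0355), and IL6ST kept its call at 0.21.

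Of 15 tested IL-1 receptor and signalling genes, 2 rose and 2 fell, beside 13.0% and 13.1% of all tested genes. Both chains of the IL-1 receptor were lower: IL1RAP fell from 94.4 ± 5.18 to 58.5 ± 6.80 CPM (log2 difference -0.69, edgeR adjusted p = 3.40e-04) and IL1R1 from 26.4 ± 2.57 to 18.3 ± 2.61 CPM (-0.52, adjusted p = 0.00857), a call lost without knockdown replicate 2 (0.0525). IL1RL1, the IL-33 receptor, was called higher with 3, 6 and 2 counts in controls and 22, 67 and 60 in the knockdown, and TAB2 rose by 0.43 on the log2 scale. No control library held 10 counts of IL1RL1, so it was tested by virtue of its knockdown libraries and its place among the 2 is a description. The 6 tested inflammasome genes held 2 lower ones, NLRP1 (-0.48) and GSDMD (-0.56), and none higher. NLRP1 and GSDMD kept their calls after the GC and length correction, GSDMD at -0.21. In that fit 19.1% of all tested genes were called higher and 15.3% lower, and of the IL-1 receptor and signalling genes 5 were higher and 2 lower.

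**Figure D5:**
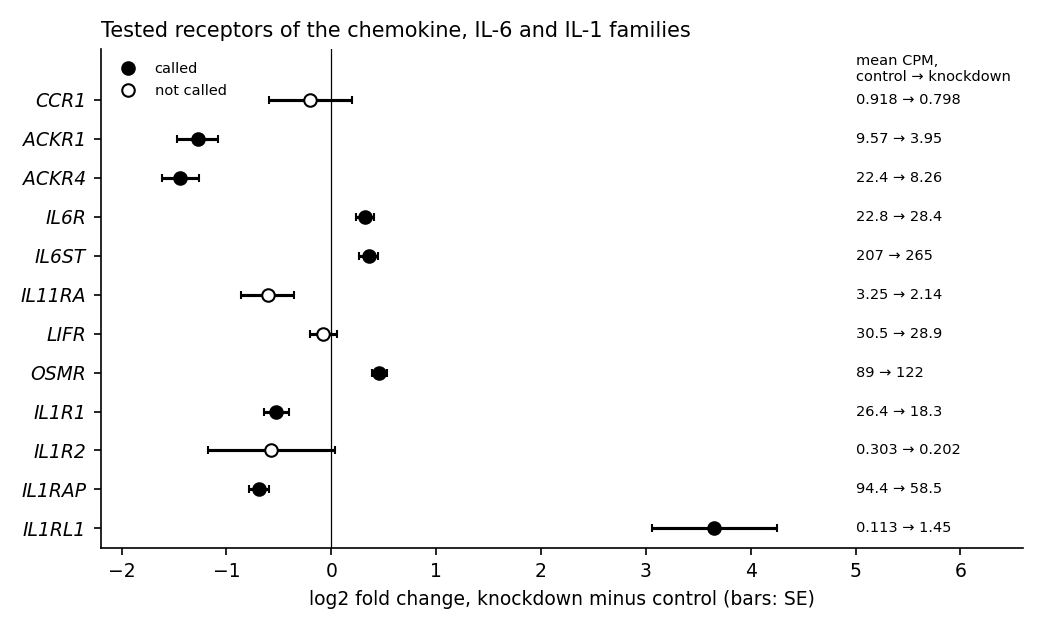
Log2 fold changes, knockdown minus control, with standard errors for the tested receptors of the chemokine, IL-6 and IL-1 families, with mean CPM of both groups at the right. Filled circles are called: ACKR1, ACKR4, IL1R1 and IL1RAP lie below 0, and OSMR, IL6ST, IL6R and IL1RL1 above. IL1RL1 was tested only through its knockdown libraries.

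Downstream of gp130, 1 of 15 tested JAK and STAT3 pathway genes rose and 2 fell, beside 13.0% and 13.1% of all tested genes. JAK2 rose by 0.41 on the log2 scale (lost without control replicate 3 or knockdown replicate 2, adjusted p up to 0.0760, edgeR), and STAT5A (-0.76) and MCL1 (-0.34) fell. SOCS3, the feedback inhibitor that STAT3 induces, and STAT3 had fold changes of -0.06 and 0.05 and were not called.

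Among regulators of these genes, 17 NF-kappaB subunits and feedback genes were tested, of which 4 rose and 1 fell. For this and the next 3 lists, the shares over all tested genes were 13.0% higher and 13.1% lower. BIRC3 rose by 1.55, the inhibitor TNFAIP3 by 0.89, the inhibitor NFKBIA by 0.68 and CYLD by 0.42 on the log2 scale, and NFKBIE fell by 0.56. Of 12 AP-1 and C/EBP factors, 4 rose and 4 fell. FOSL2 rose from 20.0 ± 1.01 to 60.1 ± 5.05 CPM (log2 difference 1.59, edgeR adjusted p = 1.07e-06), and JUN (0.60), ATF3 (0.45) and FOSB (0.83) also rose, while JUND (-0.91), CEBPB (-0.73), CEBPA (-1.25) and CEBPG (-0.27) fell. FOSB lost its call in 10 of 15 alternatives and CEBPA and CEBPG in 6 each. Of 13 genes listed as mRNA decay and stability factors, several of them acting on AU-rich elements, none rose and 3 fell. Many cytokine transcripts are destabilised through such elements. ZFP36L1, a decay factor, fell from 159 ± 3.50 to 89.3 ± 1.47 CPM (log2 difference -0.83, edgeR adjusted p = 6.09e-06), ZFP36L2 by 0.42 and KHSRP by 0.30. KHSRP lost its call in 5 alternatives, the GC and length correction among them. Of 10 tested NF-kappaB targets that are not chemokines, 5 rose and 1 fell, with PTGS2 (1.57) and PTX3 (1.24) among the rises and C3 (-1.41) the fall, a call lost when control replicate 1 or 3 or knockdown replicate 1 or 3 was left out. The median log2 fold changes of these 4 lists were 0.10, 0.07, 0.02 and 0.15, beside -0.0033 over all tested genes. After the GC and length correction, 19.1% of all tested genes were called higher and 15.3% lower. In that fit 8 NF-kappaB genes were higher and 1 lower, and 6 AP-1 and C/EBP factors were higher and 3 lower. Of the decay and stability factors 3 were higher and 4 lower. JUND, CEBPB and NFKBIE kept their calls there at -0.45, -0.35 and -0.30 on the log2 scale. What part these regulators have in the values of the 10 genes was not tested.

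Few related ligands were present. The ELR chemokines CXCL5, CXCL6 and PPBP, and PF4, a related CXC chemokine without the motif, were at 0 in all libraries. Of 9 other CXC and CX3C chemokines 2 were tested: CXCL16 rose by 0.44 and CX3CL1 fell by 0.27 on the log2 scale (adjusted p = 0.0451 for both, edgeR), calls lost in 8 and 7 of 15 alternatives. Of 17 other CC chemokines only CCL20 was tested, and it was not called (1.66 ± 0.617 and 1.02 ± 0.445 CPM, log2 fold change -0.71), but was called lower after the GC and length correction (-0.93, edgeR adjusted p = 0.0481). CLCF1, another gp130 cytokine, had 232, 206 and 215 counts in controls and 729, 625 and 543 in the knockdown, a log2 fold change of 1.47 (adjusted p = 1.39e-05, edgeR). CNTF, a further ligand of this family, was not called (1.70 ± 0.194 and 2.29 ± 0.403 CPM). None of 9 other IL-1 family ligands passed the filter. Of 11 other tested cytokines 2 were called higher (4 after the GC and length correction), IL24 with 9, 18 and 4 counts in controls and 113, 121 and 133 in the knockdown, and IL32 by 1.23 on the log2 scale. Only 1 control library held 10 counts of IL24, so it too was tested by virtue of its knockdown libraries. Over all tested genes, 13.0% were higher and 13.1% lower without the GC and length correction, and 19.1% and 15.3% with it. TNF was at 0 in all libraries. Annotated genes overlap several of those named (RICTOR for OSMR, STAT5B for STAT5A, FCMR for IL24), so their counts may hold shared reads.

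Markers of the cells that usually make or answer these ligands were looked at in the same libraries. Of 14 leukocyte markers 2 were tested, CD3D, TYROBP, AIF1 and CD163 were at 0, and the summed level was 14.6 to 18.1 CPM in controls and 28.3 to 30.02 CPM in the knockdown. Nearly all of it was CD68, a lysosomal protein gene that many cells express, which rose by 0.88 on the log2 scale. LYZ, the other marker tested, had a log2 fold change of -1.08 and was not called. It held at least 10 counts in only 1 knockdown library. What part the rise of CD68 has in the results was not tested. The 7 endothelial markers summed to 3.34 to 3.72 and 3.03 to 3.59 CPM, with CDH5 at 0, and none of the 3 tested was called. Glioma markers were present for VIM, NES, SOX2, CD44 and S100B, whereas GFAP had 8 to 23 counts and CHI3L1 0.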

How the data were processed

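Total RNA of 6 LN229 cultures was sequenced, and the authors deposited 1 table of whole-number counts per gene row without normalization, as its values show. The build was GRCh38.p14, per the submitters' processing notes. Which aligner, counter and strand option were used is something the sources used here do not say. Rows of 1 symbol were summed (28196 rows to 24976 entries, 4956 of them unnamed loci that stayed in totals and tests with 1.20 to 1.30% of counts).

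Groups came from the genotype label and replicate numbers from the titles. filterByExpr left 15638 genes, libraries were scaled by TMM, and the groups were compared with the two-sided quasi-likelihood F-test of edgeR 4.0.16 in R 4.3.3 (robust glmQLFit, then glmQLFTest), with Benjamini-Hochberg adjustment over all tested genes and a threshold of 0.05. The biological coefficient of variation was 0.111. A standard error (SE) is the absolute log2 fold change over the square root of the F statistic. Log2 CPM used a prior count of 2. Ratios were compared with two-sided exact permutation tests over libraries. Intervals and limits from counts cover counting error only. No pair of replicates was close enough to be 1 library. Chi-square per gene was 7.27 to 11.8 among controls and 12.2 to 42.7 in the knockdown, highest for knockdown replicates 1 and 3. The script was tested on simulated counts.

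The genes, the gene lists and the tests were chosen with earlier results of these data known. The rule named all 10 genes, their receptors and GLUD1, and for each list up to 3 called genes by smallest p or the most abundant measured one, plus the 5 genes nearest to CXCL8 and to LIF with a mean log2 CPM of 3 or more. Genes named only to complete a small count (such as CYLD, TAB2, STAT2, CNTF and VIM), markers named as being at 0, and SOCS3, STAT3 and TNF were picked with their values in view. Some genes that the rule names are not reported here. The alternatives were upper-quartile or relative-log-expression scaling, no filter, a minimum of 1 CPM in 3 libraries, voom of limma 3.58.1, DESeq2 1.42.0, the replicate number as a block, rows not summed (the row with the highest mean count), each library left out, a prior count of 0.5 for the ratio, and a loess correction (span 0.5) for GC content and transcript length from GENCODE, which covered 82.8% of tested genes.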

Additional observations from a re-analysis of the deposited data

How the results depend on the processing

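CXCL8, CCL2, IL11 and IL1A stayed higher and called under all 15 alternatives. Of 187 comparisons of a value with an alternative, 167 stood as kept. For a fold change this meant the same direction and side of the threshold, and for the ratio of CXCL8 to LIF the same direction. A count stood as kept within 1.5 times, so 4 of the 10 genes called higher, in place of 5, was included. A further 12 lost a call (8 for IL6 and 4 for LIF), 8 were counts that moved by more than 1.5 times or to 0, and 0 reversed. The number of genes called, 4085, ranged from 2216 to 6236 when 1 library was left out, and it was 2216 or 2230 with control replicate 1 or 3 left out, 2325 with knockdown replicate 2 left out and 6236 with knockdown replicate 1 left out. The cause was not tested. The number of the 10 genes called higher was 4 to 5 and the number called lower 0 to 1, with 0 without control replicate 1, 2 or 3 or knockdown replicate 2. The difference in the ratio of CXCL8 to LIF ranged from 2.07 to 2.32 on the log2 scale when 1 library was left out (exact permutation p = 0.2, the smallest this test gives with 3 against 2).

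With the replicate number as a block, 4791 genes were called, 5 of the 10 genes higher and 1 lower. The difference in the log2 ratio of CXCL8 to LIF was again 2.17, because pairing does not change a difference of means. Its exact sign-flip permutation p was 0.25, the smallest that 3 pairs allow. Whether the numbers pair the samples cannot be settled from 3 libraries per group. Deviations from the group means correlated at 0.37, 0.098 and -0.11 for numbers 1, 2 and 3. Knockdown replicate 3 correlated best with control replicate 2 (0.47). IL6 and IL1B were not tested when 1 CPM in 3 libraries was required. Depth limits IL6, IL1A, IL1B and CXCL3, at 7 to 110 counts per library.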

Other observations

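Genes of the interferon and double-stranded RNA response, which often move with inflammatory cytokines, were mixed. In edgeR's quasi-likelihood test 2 of 20 rose and 4 fell, beside 13.0% and 13.1% of all tested genes. IFIT2, which restricts viral translation, had 900, 810 and 852 counts in controls and 353, 477 and 482 in the knockdown, a log2 fold change of -1.03 (adjusted p = 1.83e-04), IFIT3 fell by 0.73 and MX2 by 0.79. IFIT2 and IFIT3 lie within the annotated span of LIPA, so their reads may be shared. OASL (1.65) and OAS3 (0.37) rose and STAT2 (-0.32) fell, and each of these 3 calls was lost in 3 or 4 of 15 alternatives. IFNB1 was at 0 in all libraries.

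Of 8 tested glioma and neural progenitor markers, 3 rose and 3 fell, beside 13.0% and 13.1% of all tested genes. S100B, a calcium-binding protein of astrocytes, fell by 1.13 on the log2 scale, from a mean of 430.2 (SD 13.9) to 197 CPM (SD 10.3; edgeR adjusted p = 1.07e-06), FABP7 fell by 1.45 and OLIG2 by 1.10. SOX2 rose by 0.78, CD44 by 0.44 and VIM by 0.21 on the log2 scale, and VIM lost its call in 6 of 15 alternatives.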
